A study of Mus musculus with 44 samples.

Results

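The contacts described here lie on the side of the mouse β-globin locus that holds the embryonic β-like genes, the locus control region (LCR) and the flank beyond it. The region is chr7:110977500-111080000 in the coordinates of the deposited tables (mm9), 102.5 kb that begin 0.362 kb beyond the outer edge of the nearer viewpoint interval. Its members are the DpnII restriction fragments that start and end within these bounds. There were 202 members among the 573960 fragments of the formaldehyde table and 203 among the 177756 of the low-input table, with 202 in both. The additional fragment, at chr7:111074730-111075047, held 1 interaction in all low-input libraries together. Member fragments ran from 16 to 2621 bases with a median of 350 bases and covered 93.7% of the region. The longest stretch without a listed fragment was chr7:111070861-111074729 (3.87 kb). At the bounds, the last fragment outside (483 bases, next to the viewpoint) held 124 and 194 interactions per 100000 in the 2% libraries and none in any low-input library, and the first inside (1446 bases) held 306 and 319. At the far end the last fragment inside (25 bases) held 4.51 and 8.79, and the first outside (901 bases) held 23.2 and 21.1.

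Capture-C measures how often a chosen restriction fragment, the viewpoint, was ligated to every other fragment after chromatin had been crosslinked, digested and religated. Here the viewpoints were the promoters of the adult β-globin genes Hbb-b1 and Hbb-b2, with their interactions pooled. The LCR is a cluster of strong enhancers upstream of the embryonic genes and is known to contact the adult promoters in erythroid cells, where the adult genes are expressed at very high levels and the embryonic ones are silent. Beyond the LCR, binding sites of the architectural protein CTCF and olfactory receptor genes flank the locus. No mm9 annotation was used here, so peaks and valleys are named by position and not by element.

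All libraries came from primary Ter-119+ erythroid cells taken from the spleen of C57BL/6 females after phenylhydrazine, a drug that destroys red cells and so drives their production there. The age of the animals was not given in the sources used here. The formaldehyde series held 14 NG Capture-C libraries, technical duplicates at 0, 0.5, 1, 2, 3, 4 and 5%, and its unfixed cells were Dounce homogenised in water before digestion, without the centrifugation that the fixed cells received. The low-input series held 18 libraries, 3 for each of 200, 100 and 50 ng of 3C library from cells fixed at 2%, prepared by sonication (LI-Capture-C) or by tagmentation, in which a transposase cuts and tags the DNA (Tag-Capture-C). The study calls the low-input triplicates aliquots in one place and biological replicates in another, so p-values over libraries measure the spread between these libraries, which may be technical.

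Library totals were 40235 to 155233 unique interactions in the formaldehyde series and 4564 to 28379 in the low-input series. Duplicates at 1% differed most: the LCR side held 6.47% of interactions in replicate 1 and 15.0% in replicate 2. The labels name the libraries at 0 to 2% with a lane number and those at 3 to 5% in another form without one, so these concentrations are treated as a pair of library sets, and a step between 2% and 3% cannot be told apart from a difference between the sets. Over the members, counts of duplicate libraries correlated with r = 0.83 (1%) to 0.98 (0%), and those of low-input replicates with r = 0.60 to 0.91, lowest in LI-Capture-C at 50 ng. These are correlations across fragments, which are not independent replicates. At 0%, 4 fragments held 67.3% and 63.5% of the region's counts and 120 of 202 members held none, so the r there rests largely on few fragments.

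The promoters at either end of the contacts are shown because the viewpoints were pooled over near copies while the embryonic promoters of the region are more distant relatives. RefSeq (GRCm38.p6) lists the adult genes of the C57BL/6 reference as Hbb-bt and Hbb-bs, and then, going towards the LCR, the embryonic-side genes Hbb-bh3, Hbb-bh2, Hbb-bh1 and Hbb-y. Promoter entries were matched for 4 of them. The 150 bases before each annotated start are given 5′ to 3′ on the minus strand, with CCAAT and CACCC, on either strand, in capitals. Positions in this build were not converted to mm9, so they are not directly comparable with the fragment positions.
Hbb-bt, chr7:103813924-103814073: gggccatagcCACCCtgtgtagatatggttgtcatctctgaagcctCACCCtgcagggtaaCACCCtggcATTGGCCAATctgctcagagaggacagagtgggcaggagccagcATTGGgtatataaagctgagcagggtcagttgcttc
Hbb-bs, chr7:103827929-103828078: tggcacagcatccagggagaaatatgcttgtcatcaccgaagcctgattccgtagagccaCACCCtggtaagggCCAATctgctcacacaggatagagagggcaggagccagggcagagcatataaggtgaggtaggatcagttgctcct
Hbb-bh2, chr7:103840522-103840671: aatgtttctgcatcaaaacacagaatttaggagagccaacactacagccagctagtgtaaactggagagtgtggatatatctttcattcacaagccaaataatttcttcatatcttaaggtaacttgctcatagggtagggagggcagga
Hbb-y, chr7:103853208-103853357: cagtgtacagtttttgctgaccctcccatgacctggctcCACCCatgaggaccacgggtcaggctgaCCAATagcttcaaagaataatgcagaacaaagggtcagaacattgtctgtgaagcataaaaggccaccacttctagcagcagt
The adult pair were identical over 73.2% of 153 aligned columns, and Hbb-bt and Hbb-y over 50.3% of 161. CCAAT begins 75 bases before the start in Hbb-bt, 76 in Hbb-bs and 83 in Hbb-y, and no match lies in the Hbb-bh2 window. CCAAT was found in 24.5% and CACCC in 37.4% of all 32851 promoter windows of this length, so the matches are a description only. GATC, the DpnII site, was found in the Hbb-bs window alone of the 4, and in 26.7% of all windows.

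The share of all interactions that fell on the LCR side rose with the formaldehyde concentration. The unfixed libraries held 0.163% and 0.176% of their interactions there. At 0.5% the share was 4.82% and 3.52%, and at 2% it was 17.4% and 20.2%. At 3% the duplicates held 20.5% and 21.0%, at 4% 22.0% and 22.6%, and at 5% 23.5% and 23.0%. Every concentration from 0.5% upwards lay above the one before it in its mean, and the duplicates of neighbouring concentrations overlapped in no case. Over the 7 concentration means, Pearson's r was 0.92 (exact two-sided permutation p = 0.00437, adjusted p = 0.0263 over 15 tests of 5 measures) and Spearman's rho 1 (exact permutation p = 0.000397, the smallest that all orders of 7 values can give). Within the sets the slope was 9.504 percentage points for each percentage point of formaldehyde over 0 to 2% and 1.251 over 3 to 5%. The relation over the 5 means left when 0% and 5% were dropped was r = 0.93, with an exact permutation p of 0.0333 that did not pass adjustment (0.125), and with 4% and 5% dropped it was 0.97.

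**Figure D1:**
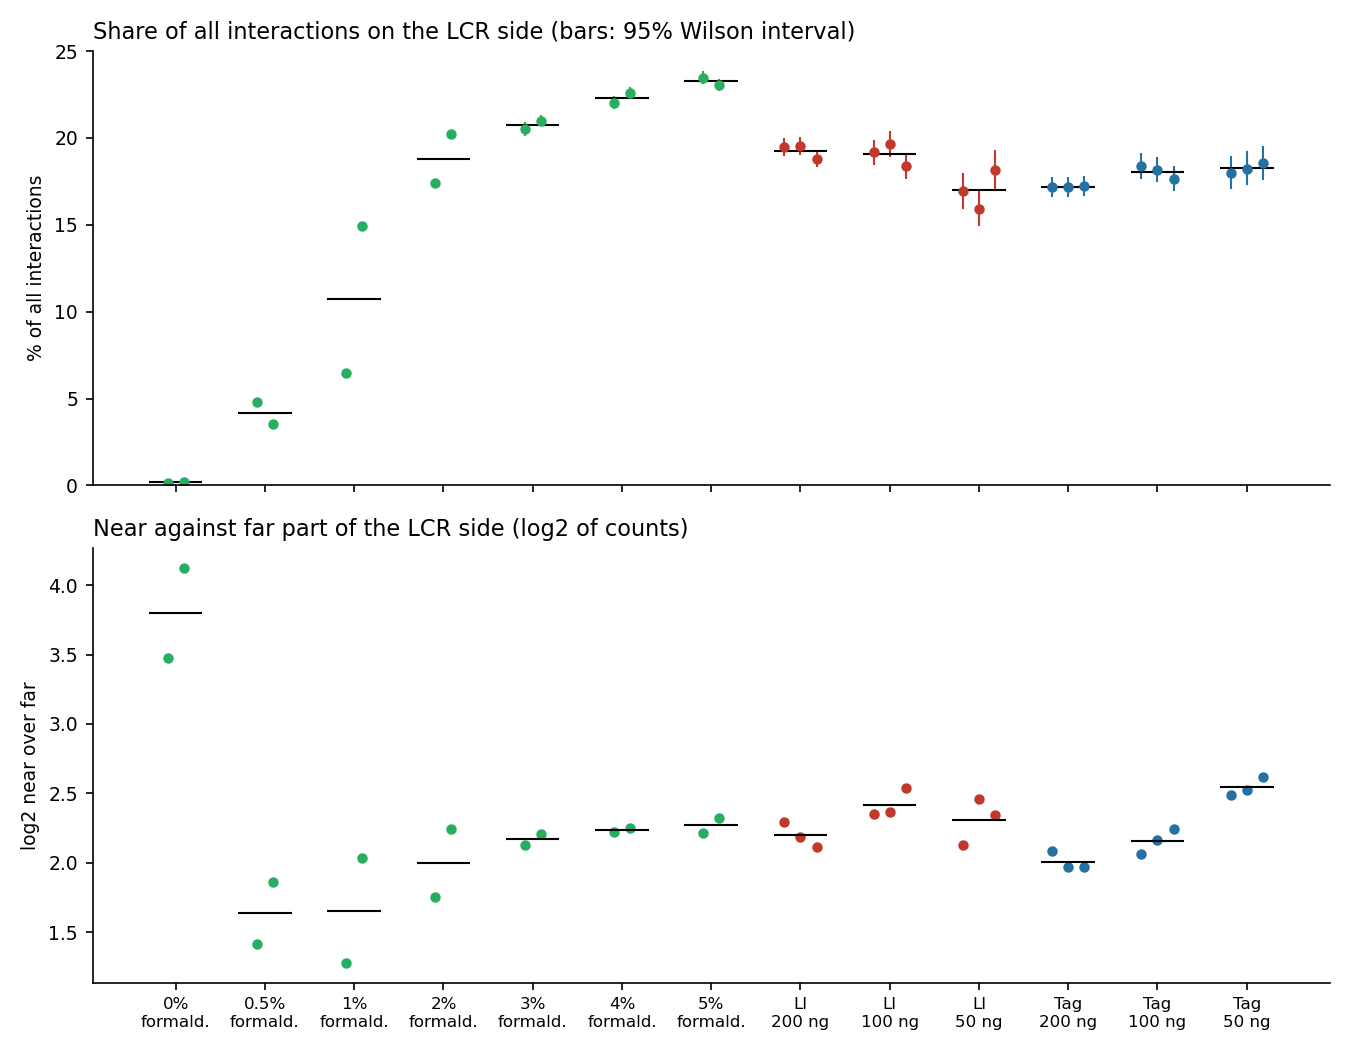
Upper plot: share of all unique interactions on the LCR side, in percent, for each of 32 libraries in 13 groups (points, with 95% Wilson intervals for counting error; horizontal lines are group means). Lower plot: log2 of the count in the nearer part over that in the farther part of the region; the shares climb from 0.163% to 23.5% across the formaldehyde series, while the low-input libraries sit between 15.9% and 19.6%.

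Chromosome 7 as a whole, with the LCR side counted in, gained share as well, and the LCR side also gained within it. Interactions on chromosome 7 made up 6.12% of the total without fixation, 63.5% at 2% and 69.7% at 5% (means of 2). Within chromosome 7, the LCR side held 2.72% and 2.82% without fixation, 28.4% and 30.8% at 2% and 33.5% and 33.2% at 5%. That share too rose over the 7 means (r = 0.86, exact permutation p = 0.00853, adjusted p = 0.0320; rho = 1); without 1% replicate 1 r was 0.82 and the adjusted p 0.0603.

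A window of the same length and distance on the opposite side of the viewpoints served for comparison. It covered chr7:110858421-110960921 and held 227 fragments in the formaldehyde table. The log2 ratio of the LCR side to this window was 1.01 and 1.25 at 0.5%, 1.55 and 1.68 at 2% and 2.11 and 2.15 at 5%, while the unfixed libraries gave 3.51 and 2.79. The LCR side thus held more contacts in each of the 14 libraries. Over all 7 means the ratio showed no trend (r = 0.05, exact permutation p = 0.919), and over the 6 fixed means it rose (r = 0.93, exact permutation p = 0.0125, adjusted p = 0.0375). Within 3 to 5% its slope was 0.005 log2 per percentage point. The rise thus lay between 0.5% and 3%, which takes in the step between the sets. The opposite window itself held 6.12% of interactions at 2% and 4.78%, 5.29% and 5.31% at 3, 4 and 5% (means of 2), so the opposite sides did not rise alike across the step between the sets. In the low-input libraries the ratio lay between 1.30 and 1.87.

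The profile was summarised in 41 windows of 2.5 kb. In the 2% libraries, whose mean defined the peaks and valleys, a peak was the highest and a valley the lowest of the 5 windows centred on it, which gave 7 peaks and 3 valleys. Contact was densest in a block of 6 adjoining windows, chr7:111007500-111022499, 30.4 to 45.4 kb from the viewpoint. These were also the 6 highest windows in each of the 3, 4 and 5% groups and in all 6 low-input groups, which did not define them. At 1% 5 of the 6 were among the highest of the mean, but replicate 2 alone carried this. In 1% replicate 1 the block windows held 190 to 284 per 100000, below the windows at 1.61 kb (372), 24.1 kb (317) and 14.1 kb (300), and at 0.5% and 0% the highest windows were scattered too.

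**Figure D2:**
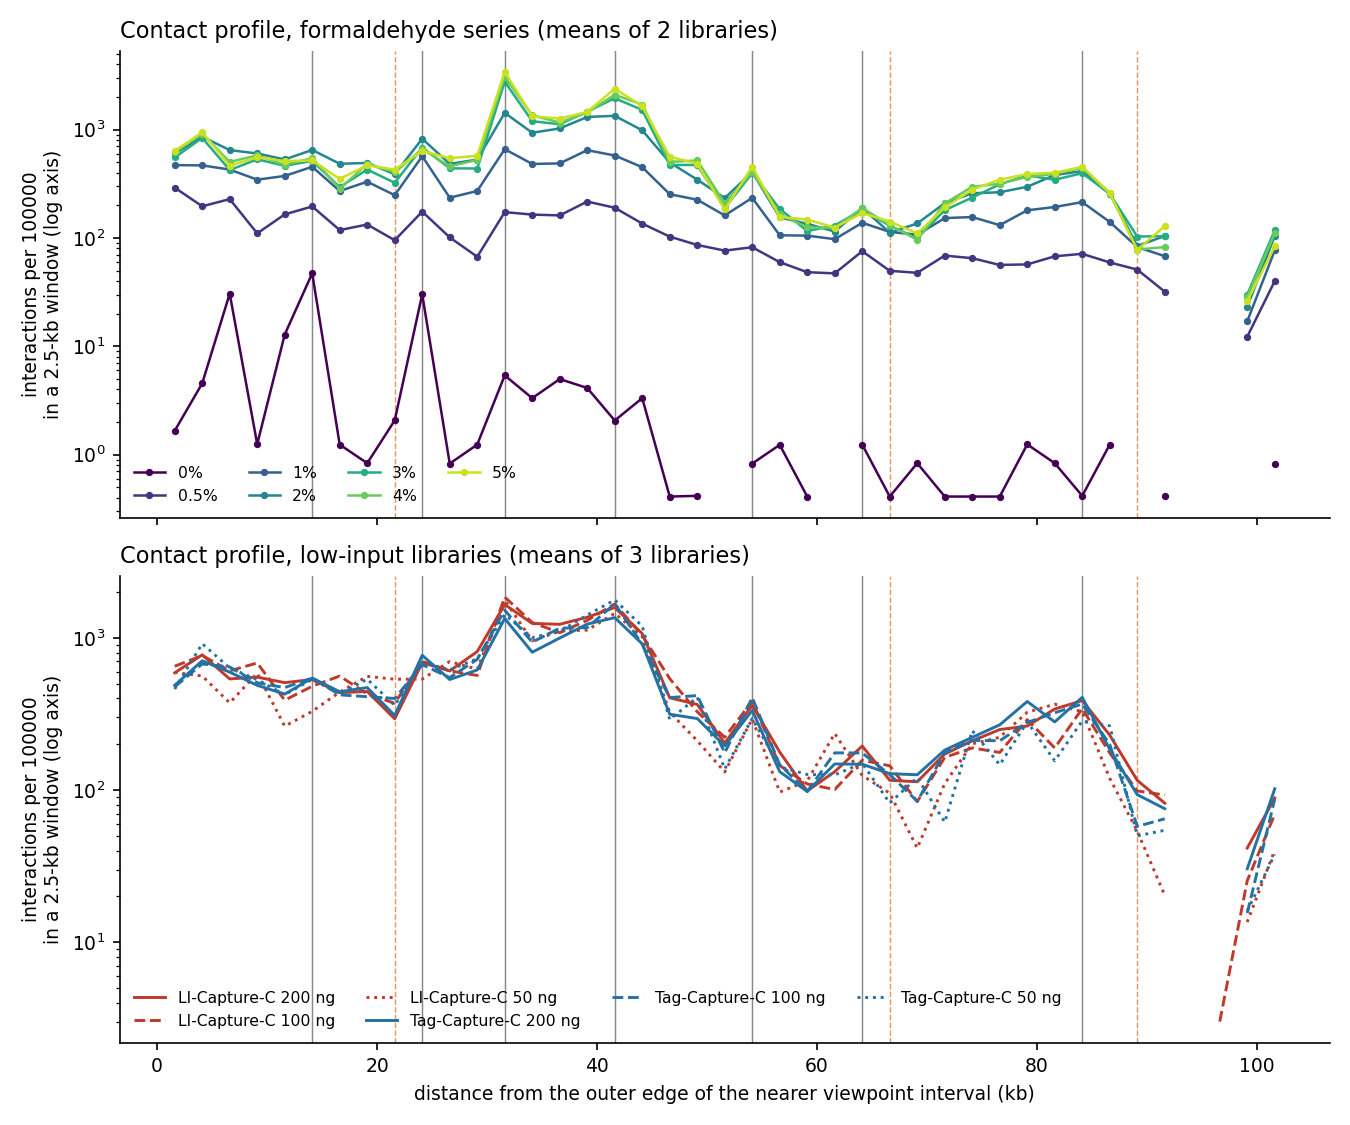
Interactions per 100000 of the library in windows of 2.5 kb (log axis) against distance from the outer edge of the nearer viewpoint interval in kb. Upper plot: the 7 formaldehyde concentrations (means of 2 libraries); lower plot: the 6 low-input groups (means of 3). Grey lines mark the 7 peaks and dashed orange lines the 3 valleys of the 2% profile; windows with no count or no listed fragment are left blank, and the windows from 31.6 to 44.1 kb are the 6 highest in each group mean from 2% upwards and in the low-input groups.

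The first window of the block was the highest peak. The window at chr7:111007500-111009999, centred 31.6 kb out, held 967 and 1883 interactions per 100000 at 2%, 2637 and 2890 at 3%, 2897 and 3230 at 4% and 3402 and 3396 at 5%. At 0.5% it held 165 and 181, and at 1% 240 and 1078. It was a peak in all 12 other groups, the unfixed one included (5 and 8 counts, or 4.11 and 6.67 per 100000). The low-input libraries held 1215 to 2301, between the values of the 2% replicates except for 2 LI-Capture-C libraries above 1883. The 3 to 5% libraries all lay above the 0 to 2% libraries.

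The last window but one of the block was the second peak, at chr7:111017500-111019999, 41.6 kb out. It held 1024 and 1654 per 100000 at 2%, 1876 and 2017 at 3% and 2457 and 2310 at 5%. It was again a peak in 9 of 12 groups, all 6 low-input groups among them, and not at 0, 0.5 or 1%. By group mean this window, with 1359 to 1777, was the highest of the whole region in the 3 Tag-Capture-C groups, and the window at 31.6 kb in the 3 LI-Capture-C groups. Single libraries did not all follow. The window at 31.6 kb was the higher in Tag-Capture-C 200 ng replicates 2 (1337 against 1319) and 3 (1304 against 1298). It was also the higher in Tag-Capture-C 100 ng replicate 3 (1659 against 1564). The window at 41.6 kb was the higher in LI-Capture-C 200 ng replicate 1 (1630 against 1544) and 50 ng replicate 2 (1890 against 1382). The fragment that differed between the protocols, in the window at 31.6 kb, is described with the protocol comparison.

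Nearer the viewpoints, a peak 24.1 kb out (chr7:111000000-111002499) held 807 and 838 per 100000 at 2% and 620 to 746 in the 6 libraries at 3 to 5%. It was a peak in 8 of 12 groups. The window 14.1 kb out (chr7:110990000-110992499) held 670 and 627 at 2% and 483 to 574 at 3 to 5%. It was a peak in 5 of 12 groups, among them the unfixed group, and not at 3, 4 or 5%. Both windows thus held less contact at 3 to 5% than at 2%, where the block held more. Between 14.1 and 24.1 kb lay the first valley, 21.6 kb out, with 356 and 418 at 2% and 283 to 479 at 3 to 5%. It was a valley in 6 of 12 groups, 5 of them low-input.

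Beyond the block, contact fell from a mean of 984 per 100000 in the last window of the block at 2% to 233 at 51.6 kb. Small peaks followed at 54.1 kb (413 and 398 at 2%), 64.1 kb (226 and 152) and 84.1 kb (342 and 485). That at 84.1 kb, chr7:111060000-111062499, was found in 10 of 12 groups. The 54.1 kb peak recurred in 4 groups and the 64.1 kb peak in 9, 1 of them the unfixed group, where that window held 2 counts and 1 count. The valley at 66.6 kb (133 and 90.5) was itself the lowest of its windows in none of the 12 groups, but in 10 of them an adjoining window was. The lowest valley, at 89.1 kb (chr7:111065000-111067499), held 106 and 62.4 at 2% and 53.8 to 107 at 3 to 5%, and recurred in 6 groups. In all, a peak was found again in 57 of 84 instances and a valley in 12 of 36. Of these, 4 peaks and 1 valley were in the unfixed group. Its libraries held 58 and 56 counts in the window at 14.1 kb and 34 and 39 in that at 24.1 kb. All the other peak and valley windows held 8 counts or fewer in each unfixed library, so that recurrence in those windows is within counting error. The highest peak exceeded the lowest valley 9.10-fold in 2% replicate 1 and 30.2-fold in replicate 2, and these libraries chose both windows.

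**Figure D3:**
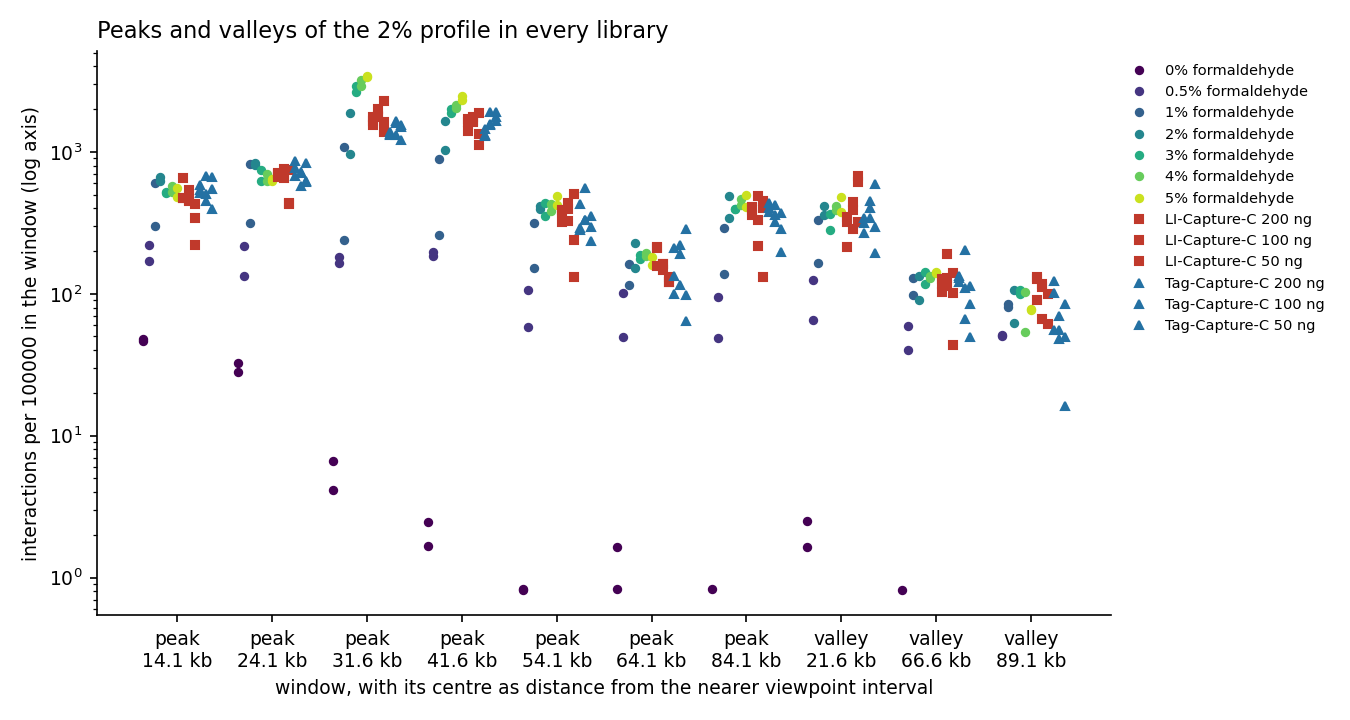
Interactions per 100000 (log axis) in the 7 peak and 3 valley windows of the 2% profile, for each library (circles: formaldehyde, dark to light for 0 to 5%; squares: LI-Capture-C; triangles: Tag-Capture-C; counts of 0 are not drawn). The peaks at 31.6 and 41.6 kb reach 3402 and 2457 at 5%, and the unfixed libraries are highest in the windows at 14.1 and 24.1 kb.

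To follow the shape of the profile, the region was divided after its values had been seen into 5 stretches, which are given with no test. The 30 kb between the viewpoint and the block held 80.4% and 78.2% of the region's interactions without fixation, 44.8% and 45.2% at 0.5%, 39.9% and 35.7% at 2% and 27.9% to 29.1% at 3 to 5%. The block, 15 kb long, held 11.1% and 16.1% of the region's interactions without fixation, 22.7% and 28.1% at 0.5%, 32.1% and 41.7% at 2% and 47.3% to 49.6% at 3 to 5%. In the low-input libraries it held 37.7% to 46.7%. In interactions per 100000 and kb, the mean density before the block was 236 at 2%, 197 at 3% and 221 at 5%, while that of the block went from 468 to 667 and 765. From 45.4 to 70.4 kb the density was 92.9 at 2% and 101 at 5%, from 70.4 to 87.9 kb it was 119 and 132, and in the last 15 kb, part of which has no listed fragment, 21.0 at both.

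The log2 peak to valley contrast, the mean count of the peak windows over that of the valley windows, was 0.99 and 1.17 at 0.5%, 1.68 and 2.18 at 2% and between 2.26 and 2.54 at 3 to 5%. Over the 6 fixed means it rose (r = 0.92, exact permutation p = 0.0125, adjusted p = 0.0375). Within 3 to 5% its slope was 0.002 log2 per percentage point. The rise thus lay between 0.5% and 3%, which takes in the step between the library sets. With the unfixed libraries, at 3.34 and 3.41, there was no trend in these windows (r = 0.17, exact permutation p = 0.700). That depended on the choice of windows, as given with the alternative settings at the end. The 2% libraries defined the windows, so their own contrast is not independent of that choice. The ratio of the nearer part, up to the midpoint of the region, to the farther part rose likewise over the fixed means, from log2 1.64 ± 0.32 (SD, n = 2) at 0.5% to 2.00 ± 0.34 at 2% and 2.27 ± 0.08 at 5%. Its r over the 6 was 0.95 (exact permutation p = 0.00694, adjusted p = 0.0256), and over all 7 it was -0.20 (exact permutation p = 0.727). The nearer part takes in the whole block, so its rise is not a gain next to the viewpoint. From 0.5% to 5% the mean share of the region in the block went from 25.4% to 49.3%. That of the 30 kb before the block went from 45.0% to 28.5%.

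As measured here, the unfixed libraries therefore set the outcome of these 3 ratios, and their few counts lay on particular fragments. Of 199 and 211 interactions on the LCR side, 134 in each library fell on 4 fragments (67.3% and 63.5%; exact Clopper-Pearson intervals 60.3 to 73.8% and 56.6 to 70.0%). These were chosen after their values were seen, as the members with at least 10 counts in both libraries. They lie 4.85, 11.4, 14.1 and 24.1 kb from the viewpoint. The fragment chr7:110991221-110991652 (432 bases) held 52 and 55 counts, chr7:110981990-110983085 (1096 bases) 38 and 33, chr7:111001278-111001694 (417 bases) 31 and 34, and chr7:110988558-110989412 (855 bases) 13 and 12. Each of the other 198 members held 5 counts or fewer, and 149 and 148 of them held none; a count of 0 allows up to 3.

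In the whole formaldehyde table only 1 further fragment, on another chromosome, reached 10 counts in both unfixed libraries. The same 4 members held 6.48% and 7.16% of the region's interactions at 0.5% and 2.37% to 3.01% at 3 to 5%. Per 100000 interactions of the library, chr7:110991221-110991652 rose from 42.7 and 45.9 without fixation to 162 and 119 at 2%. Leaving these 4 out of all libraries was tried once their counts were known. The unfixed share was then 0.0534% and 0.0642% and the unfixed log2 side ratio 1.90 and 1.35. Since the 4 were picked for their unfixed counts, and 2 of them lie in peak windows, no trend is read from that setting.

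The 5 fragments with the highest mean share over the 13 groups all lay in the block. They were chr7:111007508-111007928 (421 bases), chr7:111008142-111009073 (932 bases), chr7:111009748-111010461 (714 bases), chr7:111015419-111016071 (653 bases) and chr7:111020513-111020977 (465 bases). The first held 245 and 399 per 100000 at 2%, 621 and 575 at 3% and 587 and 656 at 5%. The fourth, nearer the middle of the block, held 302 and 384 at 2%, 410 and 422 at 3% and 422 and 461 at 5%. In the unfixed libraries each of the 5 held 3 counts or fewer.

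Single fragments were tested against the concentration with edgeR's quasi-likelihood test over the 6 fixed concentrations, with duplicates summed and composition scaled by TMM. Of 202 members, 195 passed the filter of a mean count of 10. Of all 501 fragments tested, 488 of them within 250 kb of the viewpoints, 36.1% had an adjusted p under 0.05, with 17.4% higher and 18.8% lower. On the LCR side 66 rose (33.8%) and 25 fell (12.8%), and among the 306 other fragments 21 rose (6.86%) and 69 fell (22.5%). The median slope was 0.10 log2 per percentage point of formaldehyde among members and 0.00 over all fragments tested. TMM sets this centre. Scaled by library totals, the median over all fragments was 0.29, and 62 members rose and 0 fell (edgeR), against 92 and 1 of all 501 fragments. At an unadjusted p under 0.05 it was 95 and 0 members. By DESeq2 with its own size factors 55 members rose and 22 fell, against 72 and 86 of all 501. The calls of a fall thus depend on the scaling. With the library sets as a term, 0 members and 0 of all 501 fragments rose or fell (edgeR). At an unadjusted p under 0.05, 17 members rose and 10 fell, so the slopes could not be separated from the set. From replicate 2 alone 21 of 190 members rose and 12 fell, against 28 and 20 of all 346 fragments tested. From replicate 1 alone it was 48 and 29 of 188 members, against 57 and 86 of all 370. Without the 1% libraries it was 29 and 13 of 195 members, against 37 and 52 of all 496.

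By stretch, those that rose were most frequent in the block. The stretches were drawn after the values of these libraries were seen, so these counts are a description only. In the block 29 of 35 tested fragments rose and 0 fell, with a median slope of 0.38. In the 30 kb nearest the viewpoint 12 rose and 11 fell of 59, from 45.4 to 70.4 kb 7 rose and 8 fell of 44, from 70.4 to 87.9 kb 16 rose and 2 fell of 46, and beyond that 2 rose and 4 fell of 11.

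The fragment with the smallest adjusted p was chr7:111007929-111008141 (213 bases, under the highest peak). It held 20.6 and 20.05 interactions per 100000 at 0.5%, 96.0 and 220 at 2%, 350 and 437 at 3%, 425 and 510 at 4% and 567 and 546 at 5%. Its libraries at 3 to 5% all lay above those at 0 to 2%. The edgeR slope was 0.71 ± 0.09 (SE) log2 per percentage point (adjusted p = 3.72e-06). The other rising fragments named by the same rule were chr7:111009378-111009551 (174 bases), from 12.7 and 16.9 at 0.5% to 500 and 444 at 5%, and chr7:111018895-111018973 (79 bases), from 9.498 and 6.33 to 215 and 215. Their slopes were 0.72 ± 0.10 and 0.59 ± 0.08, with edgeR adjusted p-values of 7.16e-06 and 9.61e-06.

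The fragments that fell most clearly relative to the TMM centre were long. Per 100000 interactions, not all of them held less at 5% than at 0.5%. For chr7:111033247-111035519 (2273 bases, 56.1 kb out) the libraries held 53.0 and 21.1 per 100000 at 0.5%, 72.8 and 33.4 at 2%, 44.7 and 44.4 at 3% and 31.5 and 16.2 at 5%. These ranges overlapped, and the edgeR slope was -0.50 ± 0.08 (SE; adjusted p = 4.55e-05). With library totals it was -0.16 and did not pass (edgeR adjusted p = 0.599). The others were chr7:111028613-111030399 (1787 bases), from 62.5 and 29.5 at 0.5% to 64.8 and 52.8 at 5%, and chr7:111044819-111046192 (1374 bases), from 42.0 and 11.6 to 40.7 and 20.3. Their slopes were -0.34 ± 0.06 and -0.38 ± 0.07 (edgeR adjusted p = 2.06e-04 and 2.74e-04), and with library totals -0.04 and -0.06.

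**Figure D4:**
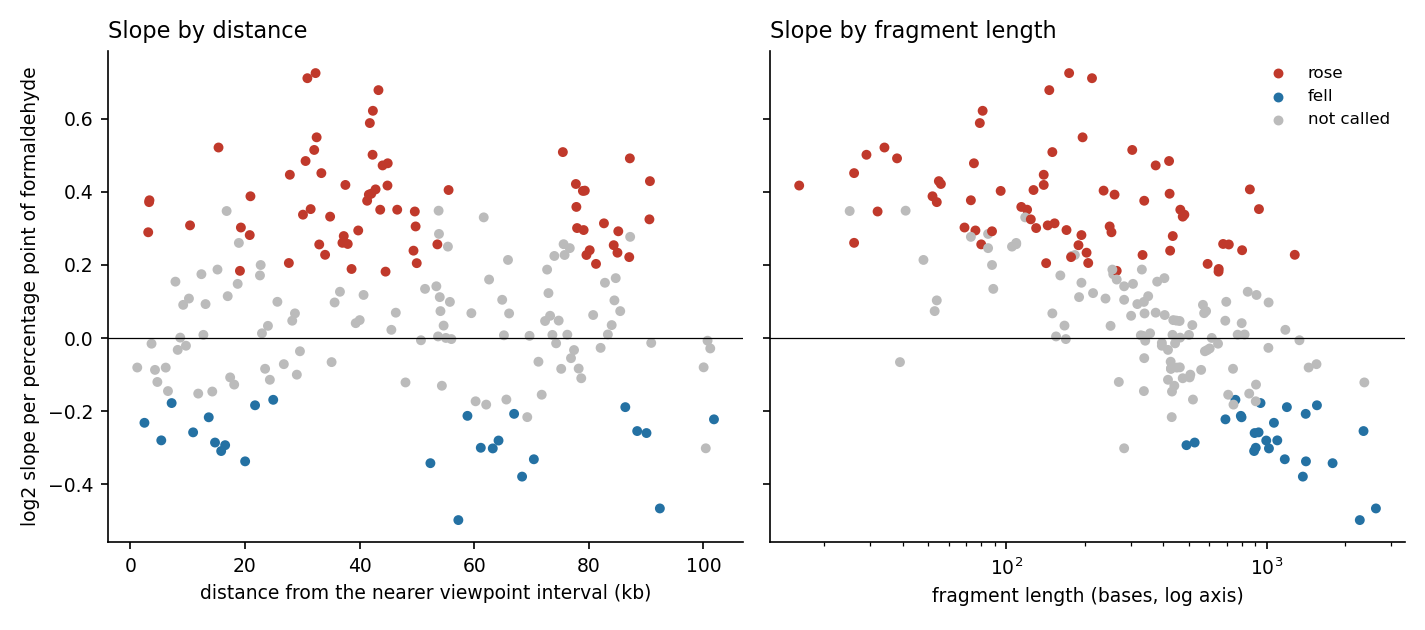
Slope of each of the 195 tested fragments of the region, in log2 per percentage point of formaldehyde (edgeR, TMM), against distance from the nearer viewpoint interval in kb (left) and against fragment length in bases (right, log axis). Red points rose and blue points fell at an adjusted p under 0.05; the rising fragments crowd between 30.4 and 45.4 kb, and the falling ones are 491 bases or longer.

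Fragment length moved with these slopes. Across the 195 members the slope and the length had a Spearman's rho of -0.70, and across the 306 other fragments -0.68; these are correlations across fragments of the same libraries. The 66 that rose had a median length of 172 bases and the 25 that fell one of 1018 bases, with none under 491. Members shorter than 350 bases covered 16.9% of the fragment length and held 18.5% and 19.3% of the region's interactions at 0.5%, 26.4% and 32.3% at 2%, 34.5% and 35.7% at 3% and 37.4% and 37.7% at 5%. On the opposite side the short fragments went from 25.1% at 0.5% to 42.1% at 2% and 47.9% at 5% (means of 2). The part of fragment length in the rise of the block was not tested; the median length of tested fragments was 374 bases in the block and 417 in the 30 kb before it.

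The low-input libraries asked whether the way a library is made, or the amount of 3C material, changes the profile. The LCR side held 18.8% to 19.5% of interactions in the LI-Capture-C libraries at 200 ng, 18.4% to 19.6% at 100 ng and 15.9% to 18.1% at 50 ng. Tag-Capture-C held 17.1% to 17.2% at 200 ng, 17.7% to 18.4% at 100 ng and 17.97% to 18.5% at 50 ng. LI-Capture-C was thus higher in every library at 200 ng, and the protocols overlapped at 50 ng. The mean difference of Tag-Capture-C minus LI-Capture-C was -0.61 percentage points (exact permutation within inputs, p = 0.193, adjusted p = 0.413). By input it was -2.08 at 200 ng, -0.999 at 100 ng and 1.252 at 50 ng, and 3 libraries against 3 cannot go below an exact p of 0.1.

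As a share of chromosome 7, the LCR side was lower in Tag-Capture-C by a mean of -1.83 percentage points (exact permutation p = 0.00525, adjusted p = 0.0263). At 200 ng the libraries held 27.05% to 27.3% against 29.5% to 30.1%, with no overlap, and at 50 ng 29.3% to 29.5% against 27.5% to 32.5%. The difference was -2.67, -1.98 and -0.82 points at 200, 100 and 50 ng, and without LI-Capture-C 50 ng replicate 3 it was -1.43 with an adjusted p of 0.0628. Neither the log2 side ratio (difference 0.09, exact permutation p = 0.179) nor the peak to valley contrast (0.16, exact permutation p = 0.369) nor the near to far ratio (-0.07, exact permutation p = 0.347) passed.

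At the level of single fragments, 76 of 203 members passed the filter, and 1.87% of all 107 fragments tested were called. A single member differed, chr7:111008142-111009073, 932 bases under the highest peak. LI-Capture-C libraries held 382 to 506 interactions per 100000 on it at 200 ng, 428 to 595 at 100 ng and 447 to 642 at 50 ng. Tag-Capture-C libraries held 153 to 234, 219 to 294 and 113 to 230. The highest of the 9 Tag-Capture-C libraries thus lay below the lowest of the 9 LI-Capture-C libraries. The edgeR difference was -1.15 ± 0.16 (SE) log2 (adjusted p = 2.08e-08), and -0.86 at 100 ng alone, where it did not pass (edgeR adjusted p = 0.0538). In the formaldehyde series, made by sonication, the same fragment held 251 and 394 at 2%. The adjoining fragment on its near side, chr7:111007929-111008141, gave 0.13 ± 0.21 and chr7:111007508-111007928 gave 0.00 ± 0.16 (edgeR adjusted p = 0.736 and 0.993). Besides this fragment, 5 members were higher and 5 lower at an unadjusted p under 0.05.

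**Figure D5:**
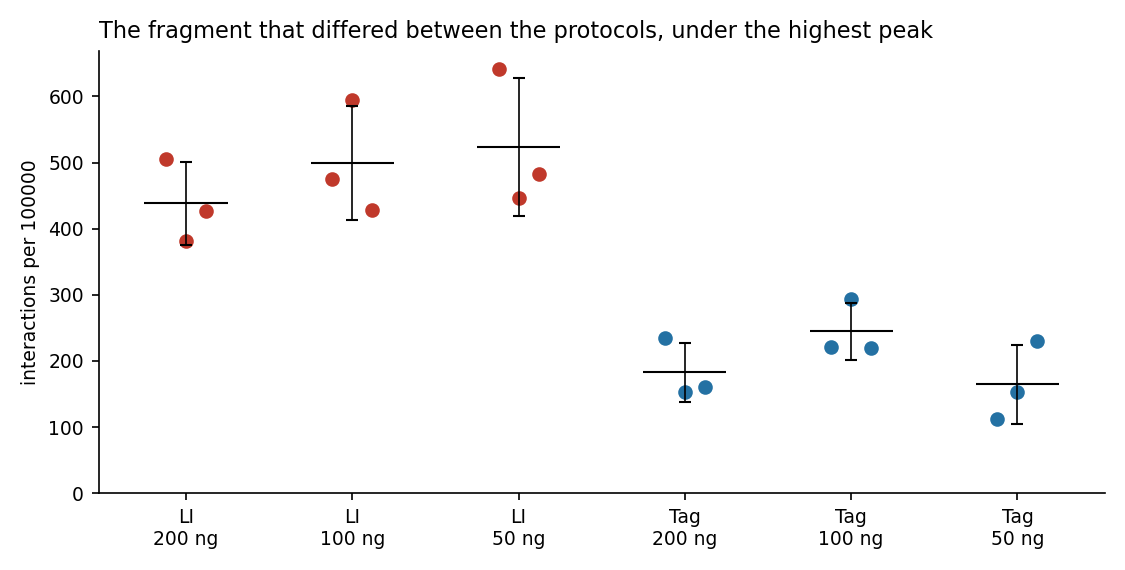
Interactions per 100000 on the fragment of 932 bases under the highest peak, in each of the 18 low-input libraries (points; lines and bars are the mean and SD of 3). All LI-Capture-C points (382 to 642) lie above all Tag-Capture-C points (113 to 294) at each input.

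With less input, fewer members were seen. Of 203 members, 194 to 195 held at least 1 interaction in LI-Capture-C libraries at 200 ng and 135 to 148 at 50 ng, against 189 to 190 and 149 to 157 in Tag-Capture-C. At 50 ng, 28 members held none in the 3 LI-Capture-C libraries together and 20 none in the 3 Tag-Capture-C libraries, and at these totals such a count allows up to 3 interactions. No member changed with input by edgeR at an adjusted p under 0.05 (0 of 76; 1 higher and 1 lower at an unadjusted p under 0.05; 0 and 0 by DESeq2), where 0% of all 107 fragments were called.

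The near to far ratio did move with input. In Tag-Capture-C its log2 value was 2.01 ± 0.07 (SD, n = 3) at 200 ng, 2.16 ± 0.09 at 100 ng and 2.54 ± 0.07 at 50 ng, and in LI-Capture-C 2.20 ± 0.09, 2.42 ± 0.11 and 2.31 ± 0.17. The libraries of Tag-Capture-C at 50 ng all lay above those at 100 and 200 ng. Over both protocols the slope was -0.16 for each doubling of input (exact permutation within protocols, p = 0.00268, adjusted p = 0.0263), with -0.27 in Tag-Capture-C and -0.06 in LI-Capture-C. The far part of the region held the fewest counts, 158 to 169 interactions in each Tag-Capture-C library at 50 ng and 546 to 570 at 200 ng. The nearer part takes in the whole block. In Tag-Capture-C the block held a mean of 38.7% of the region's interactions at 200 ng and 43.4% at 50 ng. The 30 kb before the block held 37.2% and 37.6%. In LI-Capture-C the block held 42.3% and 43.6%, and the 30 kb before it 35.2% and 36.0%.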

How the data were processed

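Unique interactions of the pooled Hbb-b1 and Hbb-b2 viewpoints per DpnII fragment had been counted in 32 libraries. The deposited tables hold raw counts: per the study's methods the authors removed PCR duplicates by identical read ends, in the low-input table also ends shifted slightly, and pooled both viewpoints. The submitters' processing notes name Trim Galore, Bowtie and mm9; versions were not given in the sources used here. Deduplicated counts are not certain to be independent molecules, so intervals (95%) and the floor of 3 counts cover counting error only.

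Counts were summed by a script (Python 3.11.15, NumPy 2.4.6, pandas 2.3.3, SciPy 1.17.1, matplotlib 3.10.9) over the region, its mirror and windows of 2.5 kb, and divided by the library total; the log2 ratios (side, contrast, near to far) add 0.5 to both counts. Distances run from the outer edge of the nearer gap in the table, taken as the viewpoint. Summary measures were tested by exact permutation of concentration means, or of libraries within input or protocol, with Benjamini-Hochberg adjustment over 15 tests. Single fragments from the whole table with a mean count of at least 10 were tested with edgeR 4.0.16 (TMM, quasi-likelihood, R 4.3.3), adjusted over all fragments tested, and with DESeq2 1.42.0 as an alternative. Of those tested, 488 of 501 with formaldehyde and all 107 of the low-input series lay within 250 kb of the viewpoints. On simulated data edgeR found 87 of 100 fragments given a slope of 0.3 log2 per percentage point among 501 (2 false), 30 of 30 given a protocol difference of 1 among 107 (2 false) and 28 of 30 given 0.5 per doubling of input. Every simulated fragment had the same fixed dispersion, not estimated from these libraries, so these counts need not hold for the real data.

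All peaks and valleys of the 2% profile were named, the 5 highest fragments, and the 3 smallest adjusted p-values in each direction of each test. The members and lists were chosen with earlier results of these data known. The 5 stretches, the 4 fragments of the unfixed libraries and the comparison of input slopes between protocols were chosen after the values were seen. The unfixed duplicates differed beyond sampling noise over 99 fragments (chi-square per degree of freedom 2.72) and were counted separately. A comparison over another choice of fragments gave 0.20 for the unfixed pair, on 3 degrees of freedom. In it the fixed duplicates differed beyond sampling noise too, from 1.53 at 5% to 4.18 at 1%, with 3.81 at 2%. So did pairs of low-input replicates, with 1.51 to 3.20. Tables of other viewpoints were not used here.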

Additional observations from a re-analysis of the deposited data

Results flagged for a closer look

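The share of interactions on the LCR side responded to input differently in the 2 protocols. In LI-Capture-C it rose by 1.14 percentage points for each doubling of input and in Tag-Capture-C it fell by 0.532. The difference was -1.67 (Tag-Capture-C minus LI-Capture-C). Permutation of protocol labels within inputs gave p = 0.005 (adjusted p = 0.025 over 5 measures), the smallest its 400 labellings can give. The values were first centred by a protocol offset estimated from the same libraries, so this permutation p is not exact. Without centring, the permutation p was 0.01. The slopes and the labellings rested on the highest and lowest inputs, and the middle input entered only the offset. The near to far ratio differed likewise, with slopes of -0.27 in Tag-Capture-C and -0.06 in LI-Capture-C. The difference was -0.21 (centred permutation p = 0.01, adjusted p = 0.025, and permutation p = 0.005 without centring). The slope differences of the share of chromosome 7 (-0.921, centred permutation p = 0.22), the side ratio (-0.09, p = 0.315) and the contrast (-0.40, p = 0.07) did not pass. Without centring their permutation p-values were 0.35, 0.37 and 0.085. Chromosome 7 made up 55.5% to 57.8% of interactions in LI-Capture-C at 50 ng and 61.0% to 65.3% in the other low-input libraries, and its part in the first difference was not tested.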

How the results depend on the processing

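Of 476 alternative settings of 22 results, 430 kept the direction and side of the threshold, or a count within 1.5 times. The share of all interactions kept its direction with formaldehyde but lost its adjusted call over 0 to 2% (r = 0.996), 3 to 5% (0.991), without 5% and 0% (0.926) and without 5% and 4% (0.967), where 3 to 5 means remained; the share of chromosome 7 did so in the same settings (0.956, 0.895, 0.924 and 0.924), and ranged from 0.817 to 0.890 with single libraries left out. Within protocols the input slope of the share was 1.14 in LI-Capture-C and -0.532 in Tag-Capture-C, and that of the chromosome 7 share -1.11 in Tag-Capture-C. The protocol difference in chromosome 7 share was -2.67, -1.99 and -0.824 at 200, 100 and 50 ng, where 3 libraries against 3 cannot pass; it was -2.27 to -1.43 with single libraries left out, and its input slope -0.977 to -0.459, which passed without LI-Capture-C 50 ng replicate 2 (adjusted p = 0.00108). Replicate numbers were not taken to pair the samples: deviations of same-numbered libraries correlated with r from -0.12 to 0.25 between protocols and from -0.13 to 0.54 between the fixed concentrations, although 0.5, 1 and 2% had 0.19, 0.27 and 0.54 among them. With a replicate block the protocol difference stayed -1.83 (exact permutation adjusted p = 0.0732); the block gave 58 fragments higher and 35 lower with formaldehyde against 55 and 35 without it. Over 0.5 to 5% the side ratio (r = 0.93), contrast (0.92) and near to far ratio (0.95, reversed from all 7 means) rose. The contrast also passed over all 7 means in windows of 5 kb (0.87), with peaks of the low-input mean (0.91), where the cause was not tested. Without the 4 fragments it was 0.93, which follows in part from how they were picked and is no test. The near to far input slope was -0.0561 in LI-Capture-C alone, and its protocol difference passed when the region was divided nearer the viewpoint (-0.0779). Peaks numbered 2 in 5-kb windows and 4 as extremes over 7. Fragments higher and lower with formaldehyde numbered 0 and 0 with no filter, where far more fragments were tested, 16 and 0 as windows, 0 and 0 with the library sets as a term, 29 and 13 without 1%, and 21 to 48 and 12 to 29 from 1 replicate each; the lower count was 0 with library totals and 14 at a mean count of 5. The protocol count lower was 3 with library totals, 0 with no filter, as windows or at 100 ng alone, and 1 to 3 with single libraries left out; the input count higher was 1 with no filter. Depth limits the low-input libraries, where 76 of 203 members reached the filter.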
